A study of Drosophila melanogaster with 12 samples.

Results

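Gene expression in *Gpdh1* mutant larvae of *Drosophila melanogaster* was set against that in *Gpdh1* heterozygous larvae. The comparison was defined by genotype label and took in every gene that passed a filter on low counts. It holds 6 of the 12 whole-larva RNA-seq libraries of the series, 3 from *Gpdh1* mutants and 3 from *Gpdh1* heterozygotes. The study asked how loss of *Gpdh1* and of *Ldh*, which encodes lactate dehydrogenase, affects larval growth, and its other 6 libraries come from *Gpdh1; Ldh* double mutants and double heterozygotes.

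The mutants were *w[1118]; Gpdh1[12]/[14]*, carrying a mutant allele on each homolog, and the heterozygotes were *w[1118]; Gpdh1[12]/+*. The controls therefore carried 1 of the mutant alleles too, and mutants and controls may also have differed in the rest of the chromosome that came with the second allele or with the wild-type copy. The double mutants and double heterozygotes, used below only to ask whether a change differed between crosses, carried in addition *Ldh[16]/[17]* and *Ldh[16]/+*. All libraries were made from larvae kept at 25 °C for 60 hours after egg collection. The labels call them mid-L3 larvae whereas the study calls them mid-L2, and the study names the *Gpdh1* alleles differently from the labels. Each library is a pool of whole larvae, so fewer cells of a type and less RNA per cell cannot be told apart. A difference in developmental stage between the genotypes at 60 hours cannot be told apart from a difference at the same stage either. Nothing in the labels says whether the libraries of a group came from separate crosses, and p-values measure only the spread between these libraries.

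*Gpdh1* encodes the cytosolic glycerol-3-phosphate dehydrogenase, which turns dihydroxyacetone phosphate from glycolysis into glycerol-3-phosphate and regenerates NAD+. Its product is oxidised again at the mitochondrial inner membrane by the glycerol-3-phosphate oxidase *Gpo1*, which completes the glycerol-3-phosphate shuttle, or enters the backbone of triglycerides and phospholipids. In growing larvae the enzyme acts beside lactate dehydrogenase to keep cytosolic NAD+ available for glycolysis.

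Counts assigned to genes lay between 23098818 and 23974769 per library in mutants and between 22339930 and 25054868 in heterozygotes. Levels are given as CPM (edgeR's standard ratio of a gene's count to the total of its library) after TMM scaling, a method that sets library sizes from the bulk of genes, and the scaling factors were 1.04 to 1.07 in mutants and 0.930 to 0.974 in heterozygotes. The coefficient of variation between libraries was 0.0986 in mutants and 0.140 in heterozygotes. The first principal component of log2 CPM took 73.7% of the variance and separated the genotypes, and the second, with 12.5%, separated heterozygote replicates 1 and 2. Tissue markers of whole larvae passed the filter, with 19 of 19 muscle, 9 of 10 fat body, 9 of 9 midgut, 18 of 18 neuronal, 7 of 7 tracheal and 9 of 9 hemocyte genes, but 5 of 10 salivary gland genes.

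A total of 10592 genes were tested with edgeR, and the median log2 fold change over all of them was 0.012. To be called, a gene needed a log2 fold change above 1 or below -1 together with an adjusted p (Benjamini-Hochberg) under 0.05. By this rule 397 genes (3.75%) were higher and 470 genes (4.44%) were lower in *Gpdh1* mutants. Mutant and heterozygote libraries did not overlap for 396 of the 397 higher and 466 of the 470 lower genes. Genes that meet the rule are nearly bound to be apart in this way, so these counts add nothing to the calls. The share of all genes tested that were apart was not computed. Among the called genes, 92 higher and 129 lower genes changed more than 4-fold. The genes called higher summed to a mean of 24390 CPM in mutants and 8496 CPM in heterozygotes, and the genes called lower to 24330 CPM in mutants and 78910 CPM in heterozygotes. With no fold limit, 1898 genes (17.9%) were higher and 2144 genes (20.2%) were lower, and these shares are the background for the gene lists below, whose members were counted at an adjusted p under 0.05 with no fold limit.

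**Figure D1:**
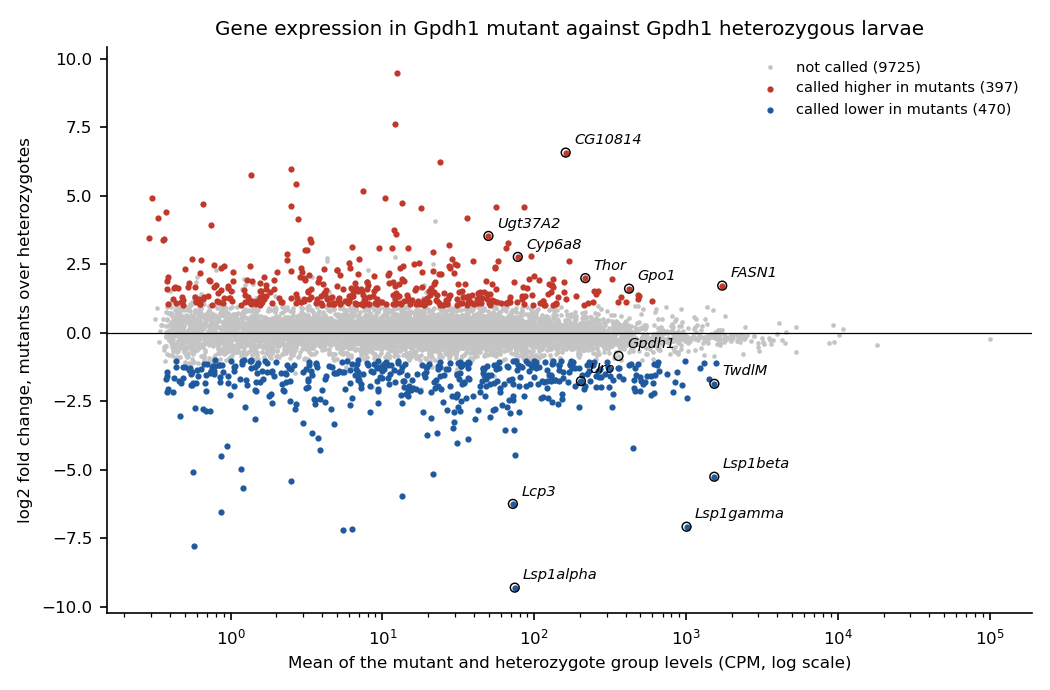
Log2 fold change of each of the 10592 genes tested, mutants over heterozygotes, against the mean of its 2 group levels in CPM on a log axis. Red points are the 397 genes called higher and blue points the 470 called lower in mutants; the serum protein gene *Lsp1alpha* lies farthest below 0 of the labelled genes at -9.31, while *Gpdh1* itself lies at -0.85.

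*Gpdh1* (FBgn0001128) transcript was lower in the mutants but still present. It stood at 222, 275 and 272 CPM in mutants, against 497, 494 and 394 CPM in heterozygotes, and every mutant library lay below every heterozygote library (log2 fold change -0.85, SE 0.12, adjusted p = 0.00240). Its exons on chromosome 2L from 5943643 to 5948968 (BDGP6.54) overlap *lncRNA:CR44986* on the other strand, which had at most 0.129 CPM in any of the 6 libraries. In double mutants, which carry the same *Gpdh1* alleles by their labels, *Gpdh1* was much lower against its own control (log2 fold change -2.98), and the difference between the comparisons was 2.13 (adjusted p = 1.9e-05). Scaled over all 12 libraries, *Gpdh1* was between 60.8 and 61.9 CPM in double mutants and between 232 and 288 CPM in *Gpdh1* mutants. The *Gpdh1* mutants therefore kept more transcript than the double mutants. Every difference between the crosses reported below also holds this difference.

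The mitochondrial partner of the shuttle rose in mutants while 8 of the 15 listed NADH enzymes fell. *Gpo1* was at 637, 626 and 642 CPM in mutants and 191, 232 and 200 CPM in heterozygotes, a 3.06-fold rise (log2 fold change 1.61, SE 0.085, adjusted p = 0.000127). *Aldh*, an aldehyde dehydrogenase, was at 1830, 1968 and 2014 CPM in mutants and 1088, 1117 and 1028 CPM in heterozygotes. *Men*, the NADP+-dependent malic enzyme that supplies NADPH, was 1.84-fold higher in mutants. The libraries of the groups did not overlap for any of these 3 genes. Against them, *Ldh* was lower at 363, 387 and 397 CPM in mutants and 488, 473 and 498 CPM in heterozygotes (log2 fold change -0.35, SE 0.062, adjusted p = 0.00523). *Mdh1*, the cytosolic malate dehydrogenase of the malate-aspartate shuttle, was at 356, 408 and 385 CPM in mutants and 611, 642 and 550 CPM in heterozygotes (log2 fold change -0.65, adjusted p = 0.00160). *Sodh1*, a sorbitol dehydrogenase, was 2.42-fold lower. Of the 15 tested genes on the list of cytosolic NADH shuttles and NADH-linked enzymes, these 3 rose, 8 fell and 4 did not pass the test. *Gpdh3*, a second glycerol-3-phosphate dehydrogenase gene that overlaps other genes, was among the latter 4 at 6.05, 6.23 and 5.96 CPM in mutants and 5.15, 4.77 and 6.56 CPM in heterozygotes (log2 fold change 0.14, adjusted p = 0.415). *Gpdh2*, *Gpo2* and *Gpo3* stayed at or below 0.473 CPM in all 6 libraries and were not tested.

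**Figure D2:**
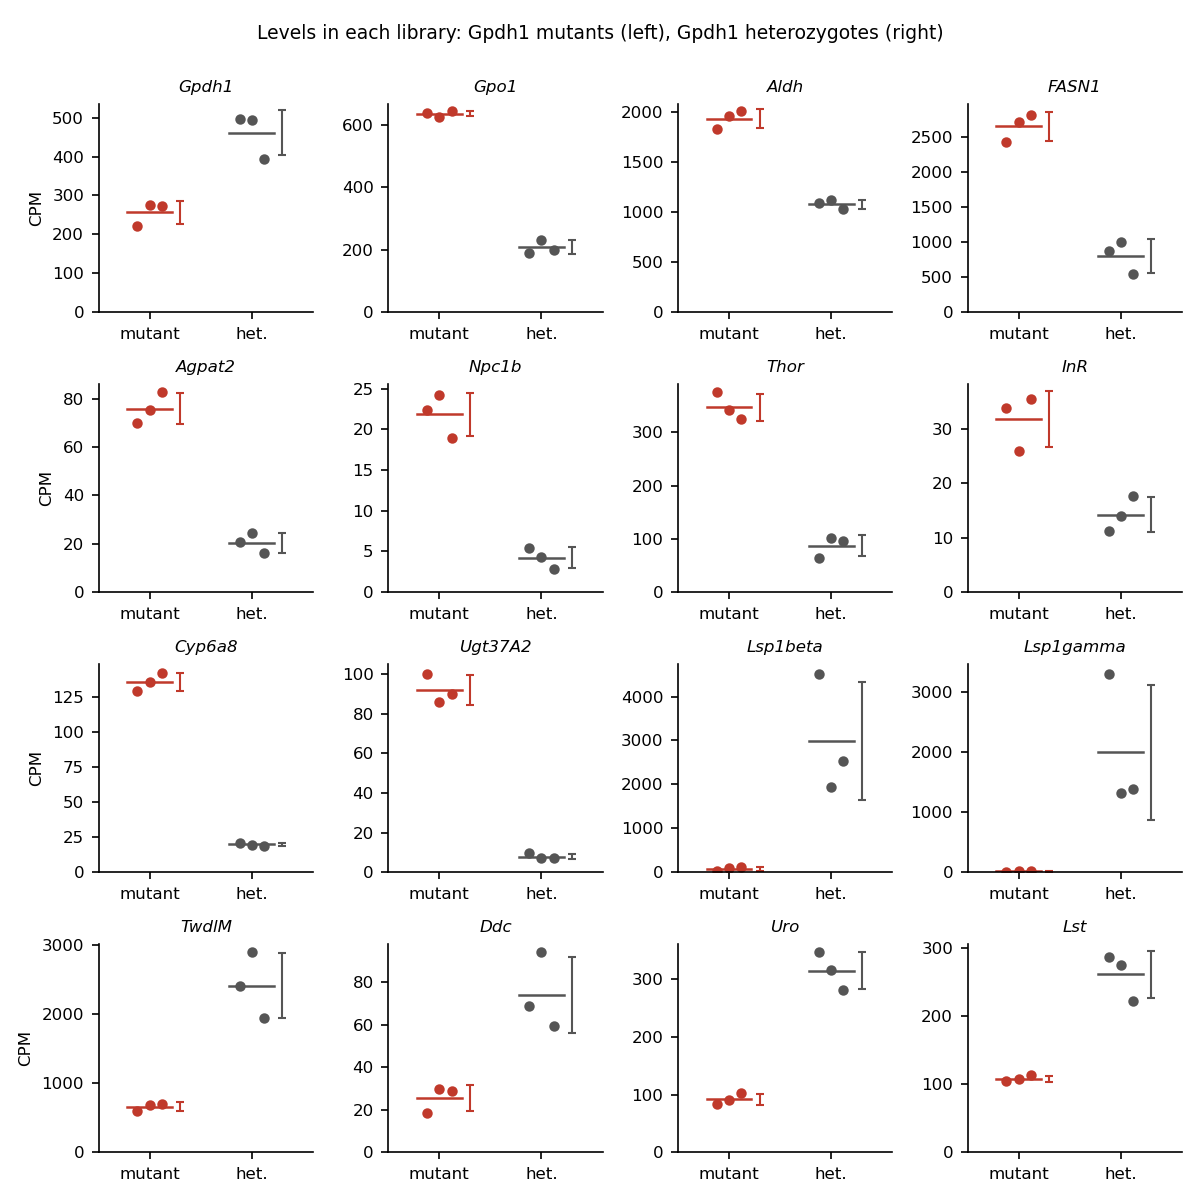
Levels in CPM of 16 genes in each library, with the 3 *Gpdh1* mutant libraries left and the 3 *Gpdh1* heterozygote libraries right in each panel; horizontal lines are group means and the bars beside them 1 SD. The groups are apart in every panel, with *Gpo1* at 626 to 642 CPM in mutants and 191 to 232 CPM in heterozygotes.

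The surroundings of *Gpdh1* were examined because the second chromosome differs between mutants and controls. Within 1 Mb of *Gpdh1*, 5.45% of the 202 genes tested were called, against 8.58% of those more than 5 Mb away on the same arm. By chromosome arm the share called was 8.0% on 2L, 9.28% on 2R, 10.2% on 3L, 8.31% on 3R and 4.83% on X. Called higher were 75 of 1824 genes on 2L and 110 of 2145 on 2R. On the other arms they were 72 of 2093 on 3L, 98 of 2647 on 3R and 39 of 1697 on X. Called lower were 71 genes on 2L, 89 on 2R, 142 on 3L, 122 on 3R and 43 on X. An effect of the rest of the second chromosome was not tested. Of the 10 annotated genes on each side 5 were tested, and 4 of them passed, all higher in mutants, against 17.9% of all genes. Of those called, *CG9021* was at 6.33, 4.26 and 5.13 CPM in mutants and 0, 0.193 and 0.164 CPM in heterozygotes, and it also passed in double mutants (log2 fold change 4.33). The other one called, *psd*, was at 0.406, 0.710 and 0.497 CPM in mutants and 0.0429, 0.0481 and 0.0410 CPM in heterozygotes, near the limit of detection, and was not tested in double mutants. *bchs*, which overlaps *CG14000*, was 1.68-fold higher (adjusted p = 0.00295) and *CG9044* 1.18-fold higher (adjusted p = 0.0130).

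Most genes of fatty acid synthesis were higher in mutants. Of 17 genes tested, 10 were higher, 1 was lower and 6 did not pass, against 17.9% higher and 20.2% lower among all genes, and the list median was 0.50. *FASN1*, the main fatty acid synthase, was at 2431, 2715 and 2826 CPM in mutants and 879, 998 and 537 CPM in heterozygotes, a 3.30-fold rise (log2 fold change 1.72, SE 0.22, adjusted p = 0.00144). *AcCoAS*, acetyl-CoA synthetase, was at 615, 750 and 736 CPM in mutants and 308, 314 and 214 CPM in heterozygotes (log2 fold change 1.33, adjusted p = 0.00124). For both genes the lowest mutant library lay above the highest heterozygote library. The stearoyl-CoA desaturase *Desat1* was 1.93-fold, the fatty acid elongase *Baldspot* 1.52-fold and the very-long-chain acyl-CoA synthetase *bgm* 2.11-fold higher in mutants. The elongase *eloF* was the member that fell (log2 fold change -0.61). The rises of *FASN1* and *Men*, which the list also holds, were larger than in double mutants, with differences of 1.07 (adjusted p = 0.00929) and 0.48 (adjusted p = 0.00774). In the test of that difference over all genes, 13.5% were higher and 12.0% were lower. On the scale of all 12 libraries, *FASN1* differed mainly in the controls, at 921, 1044 and 562 CPM in *Gpdh1* heterozygotes and 1637, 1509 and 1603 CPM in double heterozygotes. It was at 2538, 2836 and 2952 CPM in *Gpdh1* mutants and 2482, 2476 and 2480 CPM in double mutants. *Men* was at 1194, 1244 and 1303 CPM in *Gpdh1* mutants and 874, 873 and 900 CPM in double mutants.

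Enzymes that build glycerolipids from glycerol-3-phosphate also rose more often than they fell. Of 19 genes tested, 9 were higher, 4 were lower and 6 did not pass. *Agpat2*, an acyltransferase that makes phosphatidic acid, was at 69.9, 75.1 and 82.7 CPM in mutants and 20.6, 24.4 and 16.2 CPM in heterozygotes, a 3.73-fold rise (log2 fold change 1.90, SE 0.15, adjusted p = 0.000343). *mino*, the mitochondrial glycerol-3-phosphate acyltransferase at the entry to the pathway, was at 118, 142 and 140 CPM in mutants and 79.2, 78.6 and 68.3 CPM in heterozygotes, with genes overlapping it on the other strand. *Agpat2* and *mino* were above every heterozygote library in every mutant library. *mdy*, the diacylglycerol acyltransferase that completes triglyceride, went the other way and was 1.42-fold lower, as was the glycerol kinase gene *Gk2* (log2 fold change -0.42), which no longer passed without mutant replicate 3 (adjusted p = 0.0588). Of 12 lipase and lipid droplet genes, 1 rose and 1 fell.

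Genes of fatty acid breakdown were more often lower, with 2 of 16 genes higher, 10 lower and 4 not passing (median -0.41). *scu*, a mitochondrial hydroxyacyl-CoA dehydrogenase, was at 127, 150 and 139 CPM in mutants and 211, 237 and 185 CPM in heterozygotes. *whd*, the carnitine palmitoyltransferase that admits fatty acids into mitochondria, was 1.51-fold lower, and *colt*, the carnitine carrier, 1.35-fold lower; both overlap genes on the other strand. None of the 16 genes passed the test of the difference from double mutants. Lipid carriers were divided, with 6 of 15 higher and 5 lower. *Npc1b*, which takes up dietary sterol in the midgut, was at 22.4, 24.2 and 19.0 CPM in mutants and 5.45, 4.38 and 2.87 CPM in heterozygotes (log2 fold change 2.37, SE 0.21, adjusted p = 0.000538). *apolpp*, the fat body precursor of the main hemolymph lipoprotein, was at 3573, 4458 and 4186 CPM in mutants and 7011, 6010 and 6639 CPM in heterozygotes (log2 fold change -0.69). The intestinal sterol transporter was thus higher and the circulating lipoprotein lower in every mutant library.

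Sugar catabolism changed little and mostly downward. In glycolysis 6 of 13 genes fell, 1 rose and 6 did not pass, with a median log2 fold change of -0.16. *Hex-C*, a hexokinase of the fat body, was the only one of the 13 past the fold limit, at 18.3, 27.9 and 26.1 CPM in mutants and 74.2, 105 and 77.1 CPM in heterozygotes (log2 fold change -1.82, SE 0.19, adjusted p = 0.000853). *Gapdh1* was at 1346, 1534 and 1489 CPM in mutants and 1871, 2008 and 1832 CPM in heterozygotes, and *Pgk* at 368, 387 and 379 CPM in mutants and 527, 556 and 468 CPM in heterozygotes. These enzymes act just after the branch at which *Gpdh1* draws off dihydroxyacetone phosphate, and both stayed below the heterozygote range in each mutant library. In the pentose phosphate pathway 5 of 7 genes fell, and the count was 2 without mutant replicate 1 or 3 and 3 without heterozygote replicate 2. In pyruvate entry and the TCA cycle 3 of 21 rose and 6 fell, 3 without mutant replicate 1 or 3 or heterozygote replicate 1. *Pdk*, the kinase that switches off pyruvate dehydrogenase, was at 79.4, 88.9 and 76.7 CPM in mutants and 62.0, 63.1 and 63.4 CPM in heterozygotes (log2 fold change 0.38). *sut1*, a sugar transporter gene overlapping *slv*, was 2.92-fold lower in mutants.

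Nuclear genes of the mitochondrial ribosome and the respiratory chain were lower by small amounts in most members, whereas most cytosolic ribosomal protein genes did not pass the test. Of 71 mitochondrial ribosomal protein genes, 68 were lower, 0 were higher and 3 did not pass, with all 71 log2 fold changes between -0.63 and -0.13. Of 68 nuclear genes of the respiratory chain, 54 were lower, 0 were higher and 14 did not pass (median -0.31). *mRpS17* stood at 31.2, 33.6 and 32.7 CPM in mutants and 45.1, 46.9 and 44.7 CPM in heterozygotes, and the ATP synthase coupling factor *ATPsynCF6* at 306, 307 and 292 CPM in mutants and 398, 428 and 415 CPM in heterozygotes. The spread within each group was small for both, so that a fall of 1.40-fold and of 1.37-fold lay well outside it. Of 23 ribosome biogenesis genes 21 fell, 13 without mutant replicate 1 or 3, including the nucleolar methyltransferase *Fib* at 91.1, 92.1 and 87.0 CPM in mutants and 122, 154 and 129 CPM in heterozygotes. Of 89 cytosolic ribosomal protein genes 24 were lower and 0 higher (median -0.19), and this count depended on single libraries, with 3 without mutant replicate 2 or 3, 5 without mutant replicate 1, 10 without heterozygote replicate 1 or 2 and 38 without heterozygote replicate 3. In the mitochondrial genome, 3 of 12 protein-coding genes were higher, 1 was lower and 8 did not pass (median 0.24), so most mitochondrially encoded subunits did not pass in the direction of the nuclear ones. Proteasome genes hardly moved, with 1 of 31 higher and 3 lower. In double mutants 31 of 31 proteasome genes were lower, against 25.9% of all genes (25.3% were higher), and 26 of 32 were higher in the test of the difference.

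Several known targets of starvation signalling downstream of insulin and TOR were higher, and about as many genes of that list did not pass. *Thor*, the translation inhibitor 4E-BP that FOXO induces on starvation, was at 375, 341 and 325 CPM in mutants and 64.4, 101 and 95.4 CPM in heterozygotes, a 3.99-fold rise (log2 fold change 2.0, SE 0.17, adjusted p = 0.000435). *InR*, the insulin receptor and another FOXO target, was at 33.8, 26.0 and 35.6 CPM in mutants and 11.2, 13.9 and 17.6 CPM in heterozygotes. *REPTOR*, the transcription factor that TORC1 holds in the cytoplasm, was at 39.3, 39.9 and 36.8 CPM in mutants and 20.8, 21.3 and 20.2 CPM in heterozygotes. All 3 genes were apart between the groups, by about 4 times for *Thor* and less for the other two. The autophagy receptor *ref(2)P*, which overlaps *CG10337*, was 2.06-fold higher, whereas *foxo* itself was 1.26-fold lower. Of 17 genes on the FOXO and REPTOR list 8 rose, 1 fell and 8 did not pass, and 0 were higher and 5 were lower in the test of the difference from double mutants. The ATF4 and one-carbon list had 7 of 13 higher and 2 lower. *aay*, the last enzyme of serine synthesis, was at 108, 145 and 120 CPM in mutants and 47.7, 56.6 and 43.7 CPM in heterozygotes (log2 fold change 1.33, adjusted p = 0.000783), and *Cth* and *Cbs* of cysteine synthesis were 1.36-fold and 1.5-fold higher. In the insulin pathway 6 of 20 rose, 3 without mutant replicate 3, and 2 fell. *Ilp5*, an insulin-like peptide of the brain, was the clearer fall at 2.15, 2.64 and 2.15 CPM in mutants and 5.02, 5.25 and 4.80 CPM in heterozygotes (log2 fold change -1.11, adjusted p = 0.000922).

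Secreted signals other than insulin moved in both directions. *Lst*, limostatin, a peptide known in adult flies to restrain insulin secretion, was at 104, 107 and 113 CPM in mutants and 287, 275 and 222 CPM in heterozygotes (log2 fold change -1.27, SE 0.10, adjusted p = 0.000389). *CCHa2*, a nutrient-regulated peptide of fat body and gut, was at 22, 32.8 and 31.3 CPM in mutants and 48.3, 49.7 and 44.1 CPM in heterozygotes. *Mip*, a myoinhibiting neuropeptide, was at 6.21, 6.67 and 7.74 CPM in mutants and 3.43, 4.04 and 3.49 CPM in heterozygotes. The groups were apart for each of these peptides, with the first pair lower and *Mip* higher in mutants. Of 23 secreted growth regulators, 4 were higher and 8 were lower, among the latter the chitinase-like imaginal disc growth factors *Idgf2*, *Idgf4* and *Idgf6* (1.54-fold, 1.58-fold and 1.71-fold lower). The EGF ligand *spi* was among those that rose (log2 fold change 0.57). Of 25 neuropeptide genes 6 rose and 2 fell. *CCHa2* was lower than in the double-mutant comparison by 1.24 (adjusted p = 0.00105), since it was higher there (log2 fold change 0.51). Of 9 JAK/STAT genes tested 2 rose and 3 fell. The stress-induced peptide *TotA*, which sits at the end of that pathway, was at 0.730, 0.552 and 0.993 CPM in mutants and 5.32, 4.77 and 3.85 CPM in heterozygotes (log2 fold change -2.61, SE 0.23, adjusted p = 0.000470), while the pathway inhibitor *Socs36E* was 1.52-fold higher.

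Ecdysone genes gave a divided picture. *E23*, an ecdysone-inducible transporter, was at 46.6, 34.2 and 39.9 CPM in mutants and 12.5, 17.1 and 17.0 CPM in heterozygotes (log2 fold change 1.37, SE 0.16, adjusted p = 0.00105), and *Hr3*, an early-late receptor, was 1.87-fold higher. The early gene *Eip74EF* was at 32.7, 40.5 and 46.6 CPM in mutants and 107, 95.4 and 71.7 CPM in heterozygotes, a log2 fold change of -1.20 that no longer passed in the fit of all 12 libraries (adjusted p = 0.0661). Of 17 response genes 5 rose and 5 fell. The count of higher genes was 2 without mutant replicate 1 or 3 or heterozygote replicate 1, and 3 without heterozygote replicate 2. Of 11 synthesis genes 2 rose and 2 fell. *shd*, which converts ecdysone to its active form, was at 10.6, 10.2 and 7.28 CPM in mutants and 3.26, 2.98 and 4.06 CPM in heterozygotes, and *Cyp18a1*, which inactivates the hormone, was 2.02-fold lower in mutants, also not passing in that fit (adjusted p = 0.0682). None of the 7 prothoracic gland markers passed the test in either direction.

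The largest fall of any list was in the larval serum proteins, hexamers that the fat body secretes into the hemolymph during the last larval instar. *Lsp1gamma* was at 7.91, 18.9 and 17.4 CPM in mutants and 3300, 1313 and 1390 CPM in heterozygotes, a 136-fold fall (log2 fold change -7.08, SE 0.56, adjusted p = 0.000363). *Lsp1beta* was at 26.5, 92.1 and 116 CPM in mutants and 4510, 1931 and 2532 CPM in heterozygotes (log2 fold change -5.26). *Lsp1alpha* was at 0.325, 0.118 and 0.248 CPM in mutants and 273, 25.3 and 148 CPM in heterozygotes, a log2 fold change of -9.31 that was -8.53 without heterozygote replicate 1. The highest mutant library was far below the lowest heterozygote library for all 3 subunits, and heterozygote replicate 1 was the highest of its group each time. The fall passed in double mutants as well, with log2 fold changes of -7.93, -7.55 and -8.47 for *Lsp1gamma*, *Lsp1beta* and *Lsp1alpha*, and no member of the list passed the test of the difference. *Fbp1*, the fat body receptor for these proteins, was nearly absent from the heterozygotes and was at 1.66, 1.22 and 0.952 CPM in mutants and 0.0858, 0.0481 and 0 CPM in heterozygotes. General fat body markers did not fall alike, with 3 of 9 higher and 2 lower (median -0.074).

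Cuticle protein genes were lower in most members. Of 101 cuticle protein genes tested, 82 were lower, 4 were higher and 15 did not pass, and the median log2 fold change was -1.53. In the fit of all 12 libraries 52 were lower. All 122 listed genes, tested or not, summed to 14180, 15060 and 15940 CPM in mutants and to 35110, 42990 and 30560 CPM in heterozygotes. The summed level was below every heterozygote library in every mutant library. On the scale of all 12 libraries, these genes summed to 9863, 9935 and 10340 CPM in double mutants and to 10080, 6998 and 16510 CPM in double heterozygotes. The *Gpdh1* heterozygotes were thus far above both double groups, and the *Gpdh1* mutants were not below them. In double mutants 18 of 99 cuticle genes were higher and 5 lower, against 25.3% and 25.9% of all genes. *Cpr47Ec* was at 256, 210 and 266 CPM in mutants and 850, 742 and 642 CPM in heterozygotes (log2 fold change -1.61, SE 0.13, adjusted p = 0.000393). *Cpr49Ae* was at 2.48, 2.92 and 2.61 CPM in mutants and 13.7, 19.4 and 14.7 CPM in heterozygotes (log2 fold change -2.58, SE 0.16, adjusted p = 0.000202). *Lcp65Af* was at 641, 690 and 669 CPM in mutants and 1829, 2955 and 1716 CPM in heterozygotes. Heterozygote replicate 2 was the highest of its group for 66 of the 101 genes, including *Lcp65Af* and *Cpr49Ae*. *Lcp3* shows how far that library could weigh, at 1.62, 0.710 and 3.31 CPM in mutants and 28.3, 320 and 79.7 CPM in heterozygotes, and its log2 fold change of -6.25 was -4.85 without heterozygote replicate 2 and -6.93 without mutant replicate 3. Rises were few, and the clearest was *TwdlQ*, a Tweedle family member at 163, 189 and 207 CPM in mutants and 103, 80.5 and 87.7 CPM in heterozygotes. The Osiris genes, which are also active in cuticle-secreting epithelia, did not follow, with 0 of 16 higher and 1 lower.

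Enzymes that make and harden cuticle were often lower too. Of 17 tanning genes 13 were lower and 1 was higher, and of 31 chitin genes 17 were lower and 4 were higher, with 11 lower in the fit of all 12 libraries. *Ddc*, dopa decarboxylase, the source of dopamine for cross-linking, was at 18.7, 29.6 and 28.7 CPM in mutants and 68.8, 93.9 and 59.2 CPM in heterozygotes, with *CG10561* overlapping it. *y*, needed for black pigment, was at 36.2, 30.4 and 33.9 CPM in mutants and 111, 129 and 86.0 CPM in heterozygotes (log2 fold change -1.70, SE 0.15, adjusted p = 0.000507). *mmy*, which makes the sugar nucleotide that chitin is built from, was at 148, 143 and 164 CPM in mutants and 332, 404 and 281 CPM in heterozygotes. *obst-E*, a chitin-binding organiser of larval cuticle shape, was 3.05-fold lower. All 4 genes had every mutant library below every heterozygote library.

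Part of the called genes lay side by side. Among genes called lower, 39.6% had an adjacent tested gene that was also called lower. Among genes called higher, 26.6% had an adjacent tested gene called higher. Of all genes tested, 4.44% were called lower and 3.75% higher. The share of all genes with such a neighbour was not computed, so these percentages have no direct baseline. The longest stretch was 14 adjacent genes of the *Lcp65A* and *Cpr65A* cuticle cluster on 3L from 6130386 to 6155203 (BDGP6.54), with log2 fold changes from -2.54 to -1.31. The *Ccp84A* cluster on 3R from 6686728 to 6704903 held 8 adjacent genes called lower (median -1.67), and *Lcp1* to *Lcp4* on 2R, from 8430115 to 8438495, were all called lower. Another 7 genes on 3L from 19464049 to 19476423 had a median of -2.18. The longest stretch of higher genes was 8 genes on 2R from 18042296 to 18057065 around the mucin gene *Muc55B* (median 1.55). Genes in such clusters are similar in sequence. Reads that aligned to more than 1 place were set apart by the counter, so the levels of these genes are uncertain.

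Midgut genes rose together. All 9 enterocyte markers were higher (median 0.85), and they summed to 352, 334 and 348 CPM in mutants and to 226, 203 and 196 CPM in heterozygotes. *mesh*, *Tsp2A* and *Ssk*, which form the smooth septate junction of the gut epithelium, were 1.89-fold, 1.90-fold and 1.58-fold higher, and the enterocyte transcription factor *nub* was at 6.37, 5.80 and 5.71 CPM in mutants and 3.39, 3.13 and 3.36 CPM in heterozygotes. The groups did not overlap for any of the 4. Among digestive enzymes, 7 of 14 carbohydrate digestion genes were higher and 0 were lower, with 4 higher without mutant replicate 2 or 3 or heterozygote replicate 3. The maltase *Mal-A2* was at 57.6, 60.2 and 50.5 CPM in mutants and 26.0, 20.6 and 18.4 CPM in heterozygotes (log2 fold change 1.37, SE 0.13, adjusted p = 0.000656). Its rise was smaller than in double mutants (difference -0.91, adjusted p = 0.00295).

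Of 26 trypsin and Jonah protease genes, 10 were higher and 3 were lower, and *lambdaTry* was at 33.4, 35.4 and 32.7 CPM in mutants and 14.2, 6.59 and 8.81 CPM in heterozygotes. Heterozygote replicate 1 was the highest of its group for 24 of these 26 genes, and the count of higher genes was 20 without it, 6 without mutant replicate 1 or heterozygote replicate 3 and 5 without mutant replicate 3. Gut mucins were divided, with 6 of 15 higher and 4 lower. *Muc55B* was at 42.9, 34.9 and 38.5 CPM in mutants and 8.49, 8.42 and 9.35 CPM in heterozygotes (log2 fold change 2.15, SE 0.097, adjusted p = 8.6e-05). *Peritrophin-15a*, a protein of the membrane that lines the gut, was instead 1.38-fold lower. The digestive lysozyme gene *LysB* fell as well, at 22.8, 21 and 29.3 CPM in mutants and 198, 76.9 and 83.8 CPM in heterozygotes. Among alkaline phosphatases 5 of 11 rose, 3 without mutant replicate 1 or 3 or heterozygote replicate 2 or 3, and *Alp7* fell to 11.9, 24.5 and 11.4 CPM in mutants, against 109, 154 and 103 CPM in heterozygotes.

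Detoxification families held many rises with little spread between libraries. Among 67 cytochrome P450 genes 31 rose and 12 fell, among 30 UDP-glycosyltransferase genes 18 rose and 4 fell (median 0.75), and among 35 glutathione S-transferase genes 12 rose and 4 fell. *Cyp6a8*, an inducible P450, was at 129, 136 and 143 CPM in mutants and 21.2, 19.7 and 18.7 CPM in heterozygotes, a 6.84-fold rise (log2 fold change 2.77, SE 0.072, adjusted p = 1.5e-05). *Ugt37A2* was at 100, 85.7 and 90.0 CPM in mutants and 9.57, 7.12 and 7.01 CPM in heterozygotes, an 11.6-fold rise (log2 fold change 3.54, SE 0.13, adjusted p = 5.5e-05). *GstD2* was at 215, 164 and 254 CPM in mutants and 49.7, 58.8 and 54.8 CPM in heterozygotes. For *Cyp6a8* and *Ugt37A2* the libraries of a group lay close together and the gap between groups was several times that spread, while *GstD2* varied more among mutants and was still apart from the heterozygotes. *Ugt37A3* and *Ugt49C1* rose 7.73-fold and 5.12-fold, *Cyp4p1* 3.83-fold, and *GstE9*, which overlaps *imd*, 3.13-fold. Falls occurred in the same families, such as *GstE5* at 4.99, 6.98 and 5.38 CPM in mutants and 26.8, 25.0 and 22.9 CPM in heterozygotes. Antioxidant genes split evenly, with 4 of 18 higher, among them the peroxidases *Gtpx* (1.52-fold) and *Prx2* (1.41-fold), and 4 lower. In the test of the difference from double mutants, 9 of 69 P450 genes were higher and 25 were lower.

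**Figure D3:**
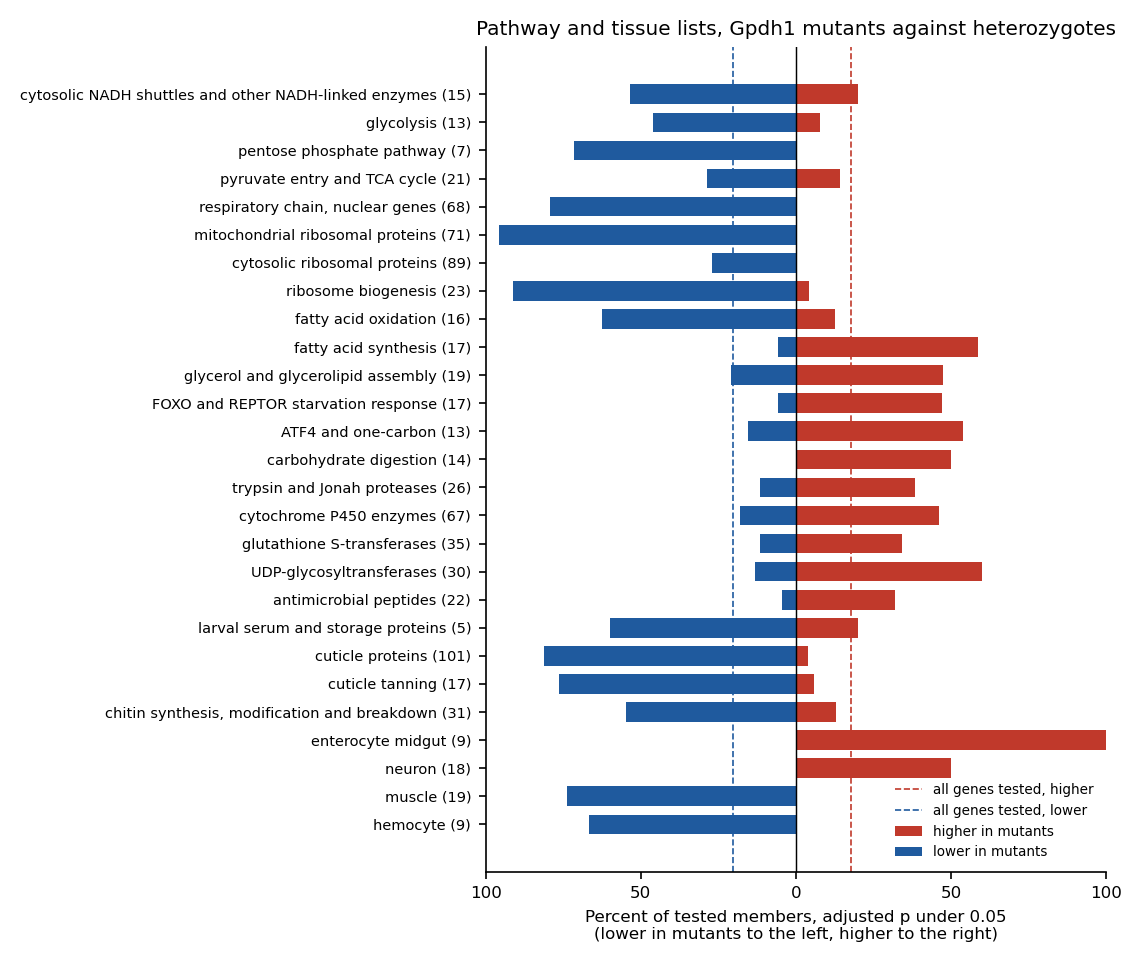
Percent of the tested members of 27 gene lists (number tested in brackets) with an adjusted p under 0.05, lower in mutants to the left in blue and higher to the right in red; the dashed lines are the 20.2% and 17.9% of all genes that passed in each direction. Lists of mitochondrial ribosomal proteins (68 of 71) and cuticle proteins (82 of 101) reach far left, and enterocyte markers (9 of 9) and UDP-glycosyltransferases (18 of 30) far right.

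Antimicrobial peptides were higher in the mutants by count, but varied widely between libraries of a group. The 32 listed genes, of which 22 were tested, summed to 911, 130 and 435 CPM in mutants and 11.2, 256 and 32.8 CPM in heterozygotes, so the groups overlapped. Of the 22, 7 were higher and 1 was lower, 12 were higher without mutant replicate 2 and 20 without heterozygote replicate 2. Where at least 10 counts were required in every library, 4 of these genes were tested and 1 was higher, so most had passed the filter through the libraries in which they were high. Mutant replicate 1 was the highest of its group for 15 genes and heterozygote replicate 2 for 21. *AttC*, an attacin, was at 218, 32.7 and 72.7 CPM in mutants and 1.89, 9.87 and 2.05 CPM in heterozygotes, with *CG4744* on the other strand. Its log2 fold change of 4.58 was 3.56 without mutant replicate 1 and 5.77 without heterozygote replicate 2. *Drsl5*, a drosomycin-like peptide, was at 7.91, 3.71 and 4.22 CPM in mutants and 0.129, 0.289 and 0.451 CPM in heterozygotes (log2 fold change 4.15, SE 0.47, adjusted p = 0.00106). Hemocyte markers were more often lower, with 6 of 9 lower and 0 higher. The phagocytosis receptor *NimC1* was at 3.85, 3.94 and 4.10 CPM in mutants and 9.31, 8.71 and 7.95 CPM in heterozygotes (log2 fold change -1.13, SE 0.093, adjusted p = 0.000410).

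**Figure D4:**
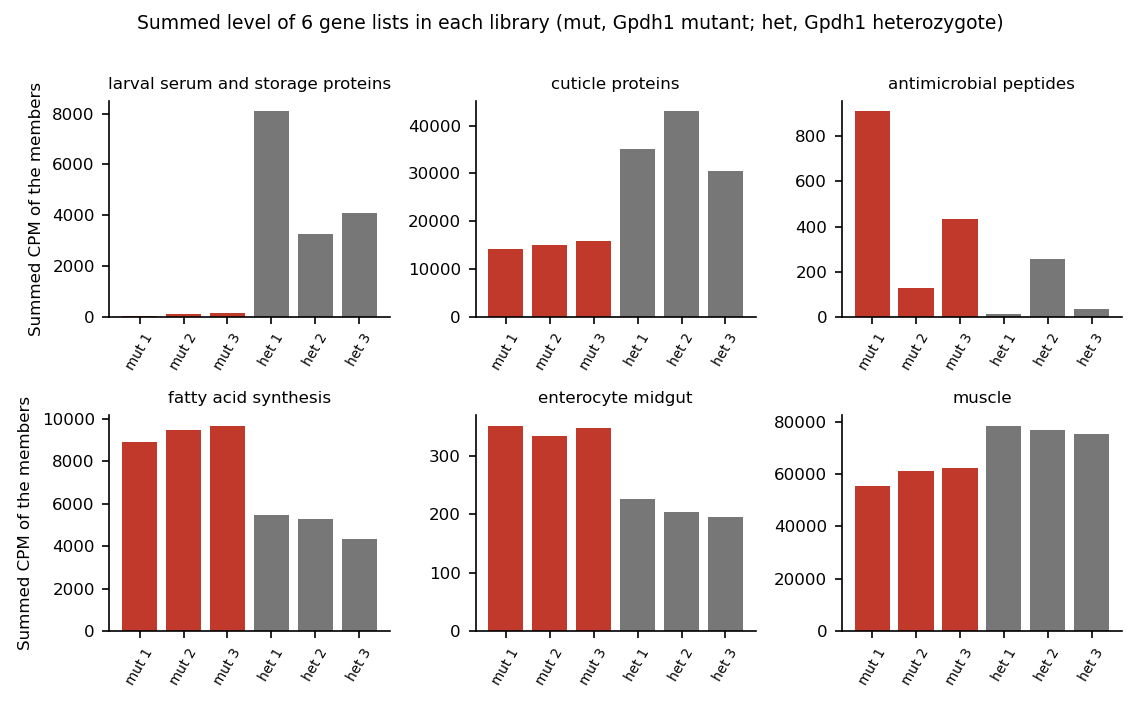
Summed CPM of the members of 6 gene lists in each library, mutants in red left of heterozygotes in grey, with axes starting at 0. Serum proteins, cuticle proteins and muscle genes are lower and fatty acid synthesis and enterocyte genes higher in all 3 mutant libraries, whereas antimicrobial peptides range from 130 to 911 CPM in mutants and from 11.2 to 256 CPM in heterozygotes.

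Other tissues differed by less. Of 19 muscle genes 14 were lower and 0 higher (median -0.33), and the count was 9 without mutant replicate 1 or 2. The troponin C gene *TpnC73F* was at 734, 850 and 800 CPM in mutants and 1331, 1248 and 1191 CPM in heterozygotes. Of 18 neuronal genes 9 were higher and 0 lower (median 0.21), with 3 higher without mutant replicate 3 and 5 without mutant replicate 1 or heterozygote replicate 1 or 2. The synaptotagmin gene *Syt1* was at 60.1, 58.3 and 63.8 CPM in mutants and 45.2, 47.8 and 45.4 CPM in heterozygotes. No neuroblast gene among 8 passed, and of 14 imaginal disc genes 2 were lower and 0 higher. In the Malpighian tubule 4 of 13 markers rose and 2 fell, and of 5 salivary gland genes 4 fell, including the salivary transcription factor *sage* at 4.71, 4.34 and 4.14 CPM in mutants and 7.68, 7.03 and 7.34 CPM in heterozygotes. Of 32 cell cycle and DNA replication genes 1 rose and 6 fell. In the stress response, *Hsp68*, a heat-inducible chaperone that overlaps *CG6000*, was 2.45-fold lower, and *Hsp83*, the fly HSP90, was at 720, 639 and 663 CPM in mutants and 1139, 1044 and 1095 CPM in heterozygotes. The dosage compensation RNA *lncRNA:roX1*, which males express, was at 154, 159 and 161 CPM in mutants and 120, 92.8 and 112 CPM in heterozygotes (log2 fold change 0.54, adjusted p = 0.00523), and it overlaps *ec*. The Y-linked *FDY* was at 4.54, 5.56 and 3.73 CPM in mutants and 2.83, 1.49 and 1.48 CPM in heterozygotes. Both were higher in every mutant library, and the part of the sexes in the pools was not tested.

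Some of the largest changes lay outside every list. *CG10814* was at 372, 267 and 318 CPM in mutants and 2.49, 4.43 and 3.12 CPM in heterozygotes, a 95.9-fold rise (log2 fold change 6.58, SE 0.23, adjusted p = 4.7e-05). *CG11893* was at 230, 128 and 137 CPM in mutants and 7.12, 5.58 and 7.83 CPM in heterozygotes. *lncRNA:CR44138* was at 24.7, 23.2 and 30.4 CPM in mutants and 1.07, 0.770 and 1.07 CPM in heterozygotes. All 3 were at least an order of magnitude above the controls and passed in double mutants too (log2 fold changes 6.53, 3.92 and 3.95). The hemoglobin gene *glob1* was at 926, 745 and 810 CPM in mutants and 363, 375 and 362 CPM in heterozygotes. *Tektin-C*, a structural protein of cilia and sperm tails, was at 0.568, 0.316 and 0.248 CPM in mutants and 5.75, 7.17 and 9.31 CPM in heterozygotes (log2 fold change -4.28, SE 0.30, adjusted p = 0.000268). Its fall in double mutants was of the same size (log2 fold change -4.28).

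The genes changed in *Gpdh1* mutants were set against the double-mutant comparison, which shares no library with it. In double mutants 731 genes (6.86%) were called higher and 380 genes (3.57%) were called lower. Called in both comparisons were 229 genes that were higher, 57.7% of those higher in *Gpdh1* mutants and 31.3% of those higher in double mutants. Fewer of the lower genes were shared, with 84 genes, 17.9% of those lower in *Gpdh1* mutants and 22.1% of those lower in double mutants. In the library of double heterozygote replicate 2, which differed from its group, cuticle protein genes summed to 6998 CPM, against 10080 and 16510 CPM in replicates 1 and 3, and antimicrobial peptide genes to 92.7 CPM, against 13.9 and 9.84 CPM. Without it 251 higher and 164 lower genes were called in both.

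A gene was counted as changed only in *Gpdh1* mutants when it was called there, had an adjusted p of 0.05 or more in double mutants and passed the test of the difference between the comparisons. This held for 41 genes that were higher and 97 that were lower. Without double heterozygote replicate 2 the counts were 32 and 82, of which 28 and 70 were among the former genes, and 14 and 23 genes were kept whichever of the 12 libraries was left out. Without heterozygote replicate 3 the higher count was 64. Of the 97 lower genes, the *Gpdh1* heterozygotes lay above all other 9 libraries in 82 and the *Gpdh1* mutants lay below all other 9 in 19. Most of these genes were thus high in the *Gpdh1* controls and not in the double heterozygotes. Of the 41 higher genes, the *Gpdh1* mutants lay above all others in 19 and the *Gpdh1* heterozygotes below all others in 19. These genes were chosen through contrasts of the same groups, and the shares over all genes tested were not computed. The counts therefore only describe where the groups lay in the chosen genes.

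On the scale of all 12 libraries, *phr*, a DNA photolyase gene that overlaps *Prosalpha1*, was at 12.2, 13.5 and 12.3 CPM in *Gpdh1* mutants and 1.80, 2.37 and 1.67 CPM in *Gpdh1* heterozygotes. It was at 2.44, 2.44 and 3.43 CPM in double mutants and 1.99, 2.24 and 2.19 CPM in double heterozygotes, so that only the *Gpdh1* mutants were high (difference 2.34, SE 0.22, adjusted p = 0.000102). *Cyp6a23* had the same pattern, at 101, 96.7 and 102 CPM in *Gpdh1* mutants and between 43.1 and 53.0 CPM in each of the other 9 libraries (difference 1.07, SE 0.072, adjusted p = 1.7e-05). *vri*, a transcription factor of the circadian clock, was at 60.9, 44.4 and 50 CPM in *Gpdh1* mutants and 11.2, 19.1 and 23.9 CPM in *Gpdh1* heterozygotes, against 27.4, 28.2 and 29.0 CPM in double mutants and 31.8, 61.1 and 24.9 CPM in double heterozygotes. *vri* was thus low in the *Gpdh1* controls and as high as in *Gpdh1* mutants in 1 double heterozygote library. *CG13560* was at 256, 275 and 237 CPM in *Gpdh1* mutants and 49.2, 86.7 and 79.1 CPM in *Gpdh1* heterozygotes, against 178, 171 and 223 CPM in double mutants and 164, 248 and 174 CPM in double heterozygotes. All 4 genes met the criterion whichever library was left out.

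**Figure D5:**
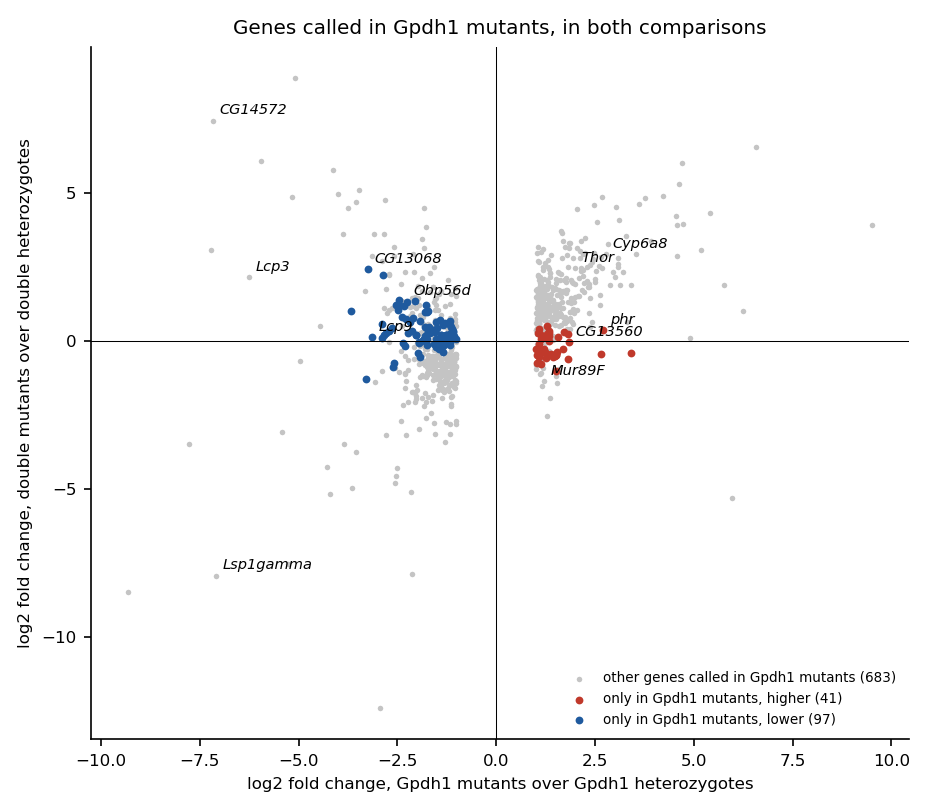
Log2 fold change in double mutants over double heterozygotes against that in *Gpdh1* mutants over *Gpdh1* heterozygotes, for genes called in *Gpdh1* mutants and tested in both. Coloured points are the 41 higher (red) and 97 lower (blue) genes counted as changed only in *Gpdh1* mutants; *Lsp1gamma* lies far below 0 in both comparisons and *Cyp6a8* above 0 in both, while *CG14572* has opposite signs.

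Among the lower genes, *Uro*, the urate oxidase of the Malpighian tubule, was at 86.9, 95.2 and 107 CPM in *Gpdh1* mutants and 362, 329 and 294 CPM in *Gpdh1* heterozygotes. It was at 164, 170 and 174 CPM in double mutants and 206, 123 and 177 CPM in double heterozygotes (difference -1.78, SE 0.22, adjusted p = 0.000418). Both *Gpdh1* groups were therefore outside the range of the double genotypes, on opposite sides. *Obp56d*, an odorant-binding protein gene, was at 167, 249 and 222 CPM in *Gpdh1* mutants and 816, 1325 and 918 CPM in *Gpdh1* heterozygotes, against 148, 138 and 151 CPM in double mutants and 23.5, 12.7 and 138 CPM in double heterozygotes. Its mutants thus stood above both double groups and only the *Gpdh1* heterozygotes were high. *Lst* was at 109, 112 and 118 CPM in *Gpdh1* mutants and 301, 288 and 233 CPM in *Gpdh1* heterozygotes, against 97, 103 and 96.2 CPM in double mutants and 81.9, 43.6 and 130 CPM in double heterozygotes. Cuticle protein genes gave 12 of the 97, 7 without double heterozygote replicate 2, and 77 were on no list. Of all 470 genes called lower, 71 were cuticle protein genes and 106 were on any list. Neither count therefore sets the 97 apart from the lower genes at large. In the test of the difference over cuticle proteins, 5 of 102 genes were higher and 31 were lower. Of the 7 adjacent genes on 3L from 19464049, 6 were counted as changed only in *Gpdh1* mutants. With each of the 12 libraries left out in turn, these 6 met the criterion in 12, 11, 5, 4, 3 and 3 of the fits. Their log2 fold changes in double mutants ran from 0.10 to 1.36, with SEs from 0.75 to 0.92. They are therefore not shown to be unchanged there.

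A smaller set was called in opposite directions, 9 genes higher in *Gpdh1* mutants and lower in double mutants and 64 genes lower in *Gpdh1* mutants and higher in double mutants, and all of them passed the test of the difference. Without double heterozygote replicate 2 these counts were 7 and 66, with 63 of the 66 among the 64. *CG14572* was at 0.0424, 0.124 and 0.0865 CPM in *Gpdh1* mutants and 2.83, 30.8 and 5.45 CPM in *Gpdh1* heterozygotes, a log2 fold change of -7.16 that was -5.53 without heterozygote replicate 2. It was at 5.53, 4.77 and 6.21 CPM in double mutants and 0, 0.0761 and 0 CPM in double heterozygotes. The pattern was crossed, with high levels in *Gpdh1* controls and in double mutants. Of the 64 genes, *Gpdh1* heterozygotes were all above double heterozygotes in 60 and *Gpdh1* mutants were all below double mutants in 56. Cuticle protein genes were 12 of the 64, against 71 of all 470 genes called lower. The 64 genes were chosen through contrasts of the same groups, and the shares over all genes tested were not computed. In the other direction, the mucin-related gene *Mur89F*, which overlaps *CG5292*, was at 611, 762 and 757 CPM in *Gpdh1* mutants and 262, 227 and 427 CPM in *Gpdh1* heterozygotes, against 243, 251 and 223 CPM in double mutants and 708, 657 and 469 CPM in double heterozygotes.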

How the data were processed

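Whole-larva RNA-seq was represented by 1 table of gene counts per library, with 17185 gene identifiers. The authors deposited raw counts, made according to the labels' processing notes with bcl2fastq 2.20.0.422, cutadapt 1.12, HISAT2 2.1.0 and HTSeq 0.9.0. The genome build and strand setting of the counting are not given in the sources used here, so reads of genes that overlap on opposite strands may not have been told apart. The study's methods name Salmon and tximport for quantification, neither used here, and DESeq2 for testing, used here only as an alternative fit. The 5 summary lines of the counter were removed. Reads without a feature were 1.00 to 1.04% in mutants and 0.813 to 0.836% in heterozygotes, and reads with more than 1 alignment, which the counter set apart, were 8.69 to 12.2% in mutants and 9.78 to 14.7% in heterozygotes, so multigene families are uncertain. Symbols were matched for 17059 identifiers from annotation BDGP6.54, and 126 had none.

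Counts were tested with edgeR 4.0.16 and limma 3.58.1 in R 4.3.3 (filterByExpr with a minimum count of 10, TMM, glmQLFit and glmQLFTest, Benjamini-Hochberg adjustment over all genes). The fit held the 6 *Gpdh1* libraries and no covariate. Each SE is the absolute log2 fold change, or difference, divided by the square root of its quasi-likelihood F statistic. The difference between crosses came from a fit of all 12 libraries. Alternatives were DESeq2 1.42.0, RLE scaling, a stricter filter (10 counts in every library) and none, 1 fit of all 12 libraries, a replicate block, leaving out each library and no fold limit. The script was tested on simulated data before use. Tables and figures were made with Python 3.11.15, pandas 2.3.3, numpy 2.4.6 and matplotlib 3.10.9.

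The comparison and the 60 gene lists (44 pathway and 16 tissue) were chosen with earlier results of these data known. *Fum1*, *FASN3*, *Etf-QO*, *nvd*, *Gfat1*, *speck*, *Pdi* and *Orc1* on those lists matched no symbol. Genes named were drawn from the *Gpdh*, *Gpo* and *Ldh* genes, neighbours of *Gpdh1* and sets picked by rule. The sets were the 10 largest rises and falls at a mean of at least 5 CPM with groups apart, and the 5 most abundant called genes in each direction. Others were up to 4 members of each list in each direction by adjusted p. Last were the 8 with the largest difference in each direction among genes called only in *Gpdh1* mutants. Not every gene of these sets is described. Among the lower of the last set, *CG13068* (difference -5.67) and *CG13066* (-5.11) are left out, while *Uro* and *Lst*, with smaller differences, are described. *FDY* and the genes named by adjacent stretches (*Lcp1*, *Lcp4*) were chosen after their values were seen.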

Additional observations from a re-analysis of the deposited data

Results flagged for a closer look

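Of the genes named above, those whose change in *Gpdh1* mutants differed from the change in double mutants, by the edgeR test of the difference over all 12 libraries at an adjusted p under 0.05, are given here. Each value is the log2 fold change of *Gpdh1* mutants over *Gpdh1* heterozygotes minus that of double mutants over double heterozygotes. The double mutants also lacked *Ldh* function by genotype and had less *Gpdh1* transcript than the *Gpdh1* mutants, so these and any other difference between the crosses cannot be told apart. A difference can also lie in the controls. *Lcp1* was at 7.63, 10.1 and 13.6 CPM in *Gpdh1* mutants and 7.51, 6.60 and 7.84 CPM in double mutants. Its controls were at 60.8, 61.7 and 38.8 CPM in *Gpdh1* heterozygotes and 7.30, 2.47 and 13.5 CPM in double heterozygotes. For *phr*, in contrast, the controls were alike. How many genes follow each pattern was not counted.

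The genes altered by the genotypes themselves differed by 6.48 for *Ldh* and 2.13 for *Gpdh1*. In NADH and lipid metabolism the differences were 0.72 for *Gpo1*, 0.68 for *Aldh*, 0.48 for *Men*, 1.07 for *FASN1*, 0.63 for *Agpat2*, 1.02 for *eloF* and -0.49 for *mdy*. *eloF* fell less, and *mdy* fell where it had a double-mutant log2 fold change of -0.02. In sugar metabolism and transport they were -0.35 for *Gapdh1*, -0.35 for *Pdk* and -0.91 for *sut1*.

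In the gut the differences were -0.91 for *Mal-A2*, -1.22 for *Muc55B*, -0.47 for *Peritrophin-15a*, -0.96 for *nub* and -1.79 for *LysB*. *Alp7* had a difference of 9.44, since it was nearly lost from double mutants (log2 fold change -12.39 there). In the detoxification and antioxidant families they were 1.07 for *Cyp6a23*, 0.89 for *GstD2*, 0.79 for *GstE9*, 0.59 for *Ugt37A2*, 0.61 for *Ugt37A3*, 0.26 for *Gtpx* and 0.29 for *Prx2*. The chaperone genes gave -0.83 for *Hsp68* and -0.54 for *Hsp83*.

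Among signals and their targets the differences were 0.75 for *Ilp5*, -1.24 for *CCHa2*, -1.49 for *Lst*, -0.38 for *Idgf2*, -0.29 for *Idgf4*, -0.49 for *foxo*, -0.24 for *REPTOR*, -1.74 for *TotA* and 2.0 for *vri*. In cuticle genes they were -8.41 for *Lcp3*, -2.30 for *Lcp1*, -1.96 for *Lcp4*, -1.82 for *Cpr49Ae*, 1.52 for *TwdlQ*, -1.60 for *Ddc*, -1.13 for *mmy* and -1.98 for *obst-E*. The remaining differences were 2.34 for *phr*, 1.87 for *CG13560*, 2.57 for *Mur89F*, 0.78 for *lncRNA:CR44138*, 1.67 for *FDY*, -0.66 for *NimC1*, -1.78 for *Uro*, -3.59 for *Obp56d* and -14.59 for *CG14572*.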

How the results depend on the processing

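Genes called numbered 1898 higher and 2144 lower with no fold limit, and 341 to 389 higher and 416 to 488 lower when each library was left out in turn. Of 38 list counts recomputed under 12 alternatives, 406 of 456 values stayed within 1.5 times the count given above. In the fit on all 12 libraries, 52 cuticle protein, 11 chitin, 3 ecdysone response and 10 cell cycle genes were lower, 47 cytosolic ribosomal genes were lower and 11 antimicrobial peptides were higher; *Eip74EF* and *Cyp18a1* no longer passed. Cytosolic ribosomal genes numbered 37 with DESeq2 and 14 with no filter. Antimicrobial peptides numbered 12 with no filter and 1 when 10 counts were required in every library. The cause was not tested.

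Replicate numbers are shared by both groups, and correlations of same-numbered deviations were -0.22, -0.23 and -0.09. Those of unlike numbers lay between -0.007 and 0.23. Deviations from a mean of 3 libraries are tied to each other, so these values cannot decide whether the numbers pair the libraries. With the replicate number as a block, cytosolic ribosomal genes lower numbered 5 and muscle genes lower 6.

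When each library was left out in turn, ranges were 32 to 64 for genes higher only in *Gpdh1* mutants, 2 to 6 for pentose phosphate, 3 to 6 for TCA cycle, 3 to 38 for cytosolic ribosomal, 13 to 21 for ribosome biogenesis, 4 to 9 for carbohydrate digestion, 5 to 20 for trypsin and Jonah proteases, 3 to 5 for alkaline phosphatases, 3 to 6 for the insulin pathway, 2 to 6 for ecdysone response genes higher, 6 to 20 for antimicrobial peptides, 9 to 13 for muscle and 3 to 9 for neuronal genes. The median log2 fold change of neuropeptide genes, 0.0096, lay between -0.012 and 0.038.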
